A study of Drosophila melanogaster with 8 samples.

Results

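The vacuolar proton pump, or V-ATPase, is the multisubunit enzyme that acidifies the inside of lysosomes, endosomes and secretory vesicles. Its peripheral V1 sector hydrolyses ATP and its membrane-embedded V0 sector carries protons across the membrane. In neurons the proton gradient it builds drives the loading of neurotransmitter into synaptic vesicles, and fly genes for its subunits are named Vha. Several subunits are encoded by more than one fly gene, and many of the extra copies are known mainly from testis or from epithelia.

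The genes described here are those whose FlyBase identifier carries a symbol starting with Vha. The annotation used holds 33 such symbols, of which 26 were matched in a table of 14622 gene identifiers. The other 7 symbols (Vha13, Vha26, Vha44, VhaAC39-1, Vha16-5, VhaPPA1-2 and VhaM9.7-d) were not matched and not analysed here, so subunits C, E and G and the main gene for subunit d are not covered. Of the 26, 10 encode V1 subunits, 14 encode V0 subunits and 2 encode accessory proteins. A total of 17 had a mean normalized count of at least 10 and entered the test, 7 from V1, 8 from V0 and both accessory genes. A normalized count is the number of reads of a gene divided by a size factor of its library.

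RNA was sequenced from heads of 3-day-old males kept at 18 °C, in 4 libraries of an Adar mutant (EA, genotype y, sc, AdarE374A) and 4 of a wild type (WT, white Canton-S). ADAR is the enzyme that converts adenosine to inosine in RNA, and the EA protein is made but cannot edit. Per the study's methods, the mutant was made by CRISPR on a y sc background and backcrossed to white Canton-S, so it is a single engineered allele. The labels do not say whether libraries of a group came from separate cultures, and p-values measure only the spread between these libraries. The groups also differ at the eye pigment transporter gene w, which had up to 301 reads per library in EA and no more than 3 in WT.

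Reads counted in genes, as recovered from the normalized counts, came to between 12517490 and 24342035 per library in EA. In WT they came to between 9930607 and 19173154. The labelled tissue was checked with marker genes. All 6 neuron, all 4 photoreceptor and all 4 glial markers were detected and tested. Summed photoreceptor markers lay between 231328 and 285800 normalized counts in EA, against 161348 to 201563 in WT. By limma 2 of the 4 (Arr2 and inaC) rose, against 0.657% of all tested genes. The most abundant of the 4, ninaE, did not overlap between the groups and passed with DESeq2 alone (adjusted p of 4.75e-05). The remaining marker, trp, overlapped between them (log2 fold change 0.02 ± 0.11, standard error; adjusted p of 0.971 by limma). The neuron marker Syt1 averaged 40976 ± 10440.0 in EA and 20749 ± 2981 in WT without overlap (SD, n = 4), with an adjusted p of 0.0557 by limma and 6.77e-05 by DESeq2. Every other neuron marker overlapped between the groups, and the list had a median log2 fold change of 0.09 with 0 called by limma. Across all tested genes 12.7% had an unadjusted p under 0.05 with limma, a share that also stands behind the counts of that kind given for marker and related lists. Summed fat body markers (4 of the 5 listed) lay between 53036 and 103965 in EA, against 32753 to 44327 in WT, with 0 of 3 tested called by limma (3 at an unadjusted p under 0.05; apolpp passed with edgeR at an adjusted p of 0.0452, and apolpp and Lsp2 with DESeq2 at 1.42e-05 and 0.0224). The part of these marker differences in the results on Vha genes was not tested. In bulk heads, fewer cells of a type and less RNA per cell cannot be told apart.

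Of the 17 tested Vha genes, 2 passed the test in EA against WT, and these were the minor copies Vha36-3, which rose, and Vha100-4, which fell. The other 15, among them every most abundant copy of its subunit, did not pass. Across all 10347 genes tested, 1.21% passed an adjusted p under 0.05 (limma, Benjamini-Hochberg adjustment over all genes), 0.657% with a higher and 0.551% with a lower value in EA. The same 2 genes were called with edgeR (1.22% of all tested genes called, 0.696% higher and 0.522% lower) and with DESeq2 (5.16% called, 3.08% higher and 2.09% lower). Without WT replicate 2 the count of Vha genes called was 1, since Vha36-3 no longer passed. The median log2 fold change of the 17 was -0.06, the median over all tested genes was -0.00290, and 8 of the 17 values were above 0. In V1, 1 of 7 tested genes rose and 0 fell. In V0, 0 of 8 rose and 1 fell, and neither accessory gene passed. The 4 EA libraries lay wholly above or below the 4 WT libraries for 2 of the 17, the same 2 that passed, against 7.99% of all tested genes.

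**Figure D1:**
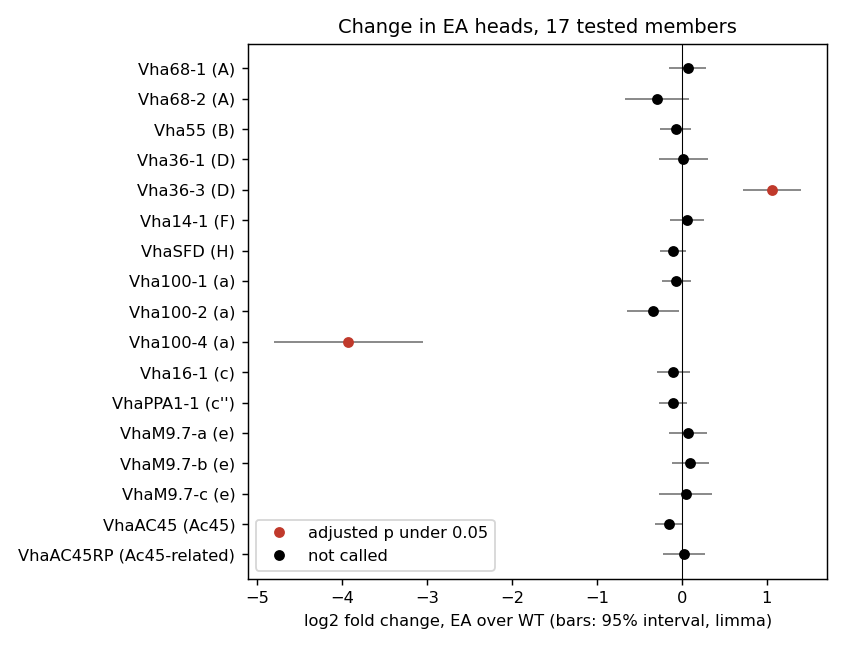
Log2 fold change of EA over WT for the 17 tested Vha genes (points) with 95% intervals from limma (bars), subunit in parentheses. Vha36-3 (1.07) and Vha100-4 (-3.93) lie apart from 0 (the fitted value of Vha100-4 depends on the pseudocount and is no bound), and the 15 other estimates lie between -0.34 and 0.10.

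Subunit D of V1 belongs to the central stalk that turns inside the catalytic head. Vha36-3 (FBgn0040377, X, 2579091 to 2580560 in BDGP6.54) is a minor gene for this subunit. Its normalized count was 225, 210.1, 246 and 188 across EA replicates 1 to 4, against 136, 97.9, 87.4 and 95.5 across WT replicates 1 to 4. The lowest EA library was above the highest WT library, and WT replicate 1 was the highest of its group. EA averaged 217 ± 24.4 and WT averaged 104 ± 21.8 (SD, n = 4), a ratio of 2.08. The log2 fold change was 1.07 ± 0.15 (standard error; adjusted p of 0.0120 by limma, 95% interval 0.73 to 1.41). The adjusted p was 0.0144 with edgeR, 2.99e-07 with DESeq2 and 0.0589 with limma without WT replicate 2.

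The major gene for the same subunit, Vha36-1 (FBgn0022097, 2R, 15541435 to 15542498), did not pass the test. It had 1220, 1404, 1311 and 1290 normalized counts in EA, against 1236, 1293, 1041 and 1655 in WT. The WT libraries enclosed all EA libraries, and the means were 1306 ± 75.7 for EA and 1306 ± 256 for WT (SD, n = 4). The log2 fold change was 0.02 ± 0.13 (standard error; adjusted p of 0.979 by limma), and its sign turned negative with DESeq2 and without EA replicate 2, WT replicate 1 or WT replicate 3. The third gene, Vha36-2, had at most 6 reads in any library and was not tested.

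Levels of different genes were compared per kb of summed exon length. On that scale Vha36-3 carried 12.0% ± 1.42 of the subunit D signal in EA and 6.28% ± 1.57 in WT (SD, n = 4), with a range of 10.7% to 13.4% in EA and of 4.52% to 8.31% in WT. Vha36-1 carried 87.9% ± 1.34 in EA and 93.6% ± 1.54 in WT. The summed subunit D signal averaged 1396 ± 70.9 normalized counts per kb in EA, against 1310 ± 241 in WT (SD, n = 4), a difference smaller than the WT spread.

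Vha36-3 lies on X between Adar and w, 791 kb from Adar and 210.0 kb from w. Sequence linked to the engineered Adar allele or to w may differ between the strains, and such a difference cannot be told apart from an effect of the allele. The nearest neighbours were Pdfr, the receptor for the clock neuropeptide PDF, and AANATL7, an acetyltransferase-like gene. Pdfr, 450 bp away, had a log2 fold change of 0.30 ± 0.10 (standard error; adjusted p of 0.222 by limma). AANATL7, 397 bp away on the other side, had one of -0.02 ± 0.17 (standard error; adjusted p of 0.986 by limma). Of 14 tested genes within 100 kb of Vha36-3, 1 passed, against 1.21% of all tested genes. It was the tetraspanin gene Tsp3A, with -0.65 ± 0.11 (standard error; adjusted p of 0.0256 by limma). The median over the 14 was -0.08.

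Subunit a is the large membrane subunit of V0 that forms the path of protons, and its isoforms differ in where they are used. Vha100-1 is the isoform of neurons and is present on synaptic vesicles, whereas Vha100-4 has been described in the acid-secreting copper cells of the midgut. Vha100-4 (FBgn0038613, 3R, 18386841 to 18389805) had 1, 1, 2 and 2 reads in EA replicates 1 to 4, against 18, 26, 39 and 46 reads in WT replicates 1 to 4. As normalized counts these were 1.15, 0.879, 2.19 and 1.15 in EA, against 23.8, 41.1, 42.1 and 31.8 in WT. EA was at the floor of 3 reads in every library and every WT library was above it, although the WT level was itself low. Set against 3 reads per EA library, the mean of 34.7 ± 8.59 in WT (SD, n = 4) put EA at least 12.5-fold lower (adjusted p of 0.00164 by limma). The adjusted p was 0.0200 without WT replicate 2, the highest among the fits that left out 1 library, 5.53e-04 with edgeR and 6.73e-10 with DESeq2.

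No tested midgut marker was called lower in EA. The tested amylase gene Amy-p had at most 2 reads in any WT library, so a fall in it could not be seen. Of 13 markers 7 were in the table, 3 were tested and 0 passed with limma (1 at an unadjusted p under 0.05). The summed normalized count of the midgut markers was 316, 231, 1654 and 408 across EA replicates 1 to 4, against 137 to 183 in WT. Replicate 3 alone made the high end in EA. Most of the sum came from the amylase gene Amy-d (565 ± 583 in EA and 119 ± 21.9 in WT, SD, n = 4). With edgeR 0 passed, and Amy-d had an adjusted p of 0.0187 with DESeq2. The homeotic gene lab, which specifies copper cells and is also used in the head, had 34.1 ± 15.1 in EA and 32.5 ± 4.23 in WT (SD, n = 4; limma adjusted p = 0.990). The trypsin and Jonah protease markers of the list (betaTry, lambdaTry, Jon65Aiv and Jon65Aiii) were below the minimum mean and were not tested. Of these, Jon65Aiv had at most 2 reads in EA and 17 in WT, and Jon65Aiii at most 2 in EA and 13 in WT, with both WT maxima in replicate 4. The part of midgut RNA in the level of Vha100-4 was not tested. Of 7 Malpighian tubule markers, the phosphatase gene Alp4 fell (log2 fold change -0.56 ± 0.08, standard error; adjusted p of 0.0126 by limma), and CapaR and Irk3 did not pass. The rest were below the minimum mean. Uro, salt and Oatp58Db had at most 3 reads in any library, and ZnT35C averaged 8.20 normalized counts. The part of tubule RNA in the level of Alp4 was not tested.

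**Figure D2:**
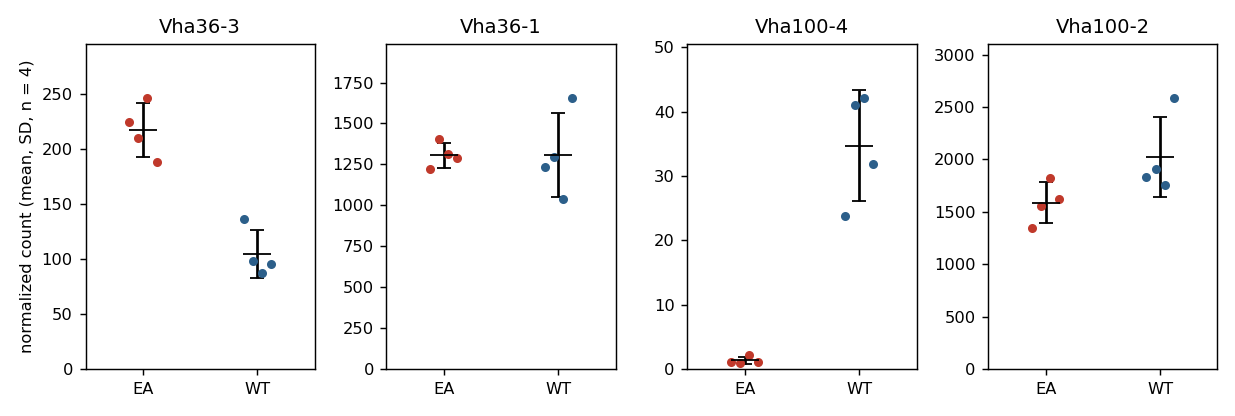
Normalized counts in each library (points) with mean and SD (black, n = 4) for EA (left, red) and WT (right, blue). Vha36-3 and Vha100-4 separate the groups, while Vha36-1, the major gene for subunit D, and Vha100-2, the gene next to Vha100-4, overlap between them.

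The gene next to Vha100-4 encodes another isoform of subunit a. Vha100-2 (FBgn0028670, 3R, 18390323 to 18399169), an isoform used outside neurons as well, lies 517 bp away on the same strand. It had 1346, 1558, 1819 and 1617 normalized counts in EA, against 1835, 1910, 1751 and 2585 in WT. The groups overlapped, because the highest EA library (replicate 3) was above the lowest WT library (replicate 3). The log2 fold change was -0.34 ± 0.14 (SE), with a 95% interval of -0.65 to -0.03, and did not pass over all genes (limma adjusted p = 0.336). Without WT replicate 4, which was far above the rest, it was -0.22. On the other side of Vha100-4, CG14309 had 0.46 ± 0.27 (standard error; adjusted p of 0.541 by limma). Within 100 kb of Vha100-4, 0 of 18 tested genes passed with limma, against 1.21% of all tested genes. The meiotic gene cona overlaps Vha100-4 by 47 bp of exon on the opposite strand and had at most 3 reads in any library.

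**Figure D3:**
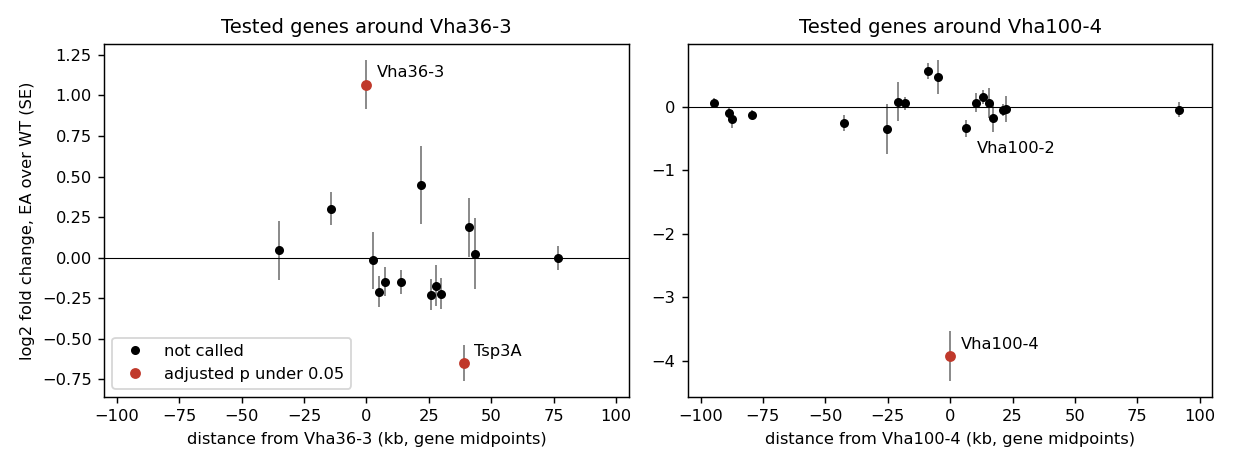
Log2 fold change of EA over WT (points, with SE) for tested genes within 100 kb of Vha36-3 (left) and Vha100-4 (right), by distance between gene midpoints in kb. Tsp3A (-0.65) is the one neighbour of Vha36-3 that passed, and no tested neighbour of Vha100-4 did.

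The neuronal isoform Vha100-1 (FBgn0028671, 3R, 29131193 to 29137980) was the most abundant gene for subunit a. Its normalized count was 4421, 4922, 4314 and 4687 in EA, against 5115, 4730, 4497 and 4831 in WT. The groups overlapped, with a log2 fold change of -0.06 ± 0.08 (standard error; adjusted p of 0.818 by limma). Per kb, Vha100-1 carried 73.9% ± 2.84 of the subunit a signal in EA and 69.6% ± 3.69 in WT, and Vha100-2 carried 26.1% ± 2.86 in EA and 29.8% ± 3.71 in WT (SD, n = 4). Vha100-4 carried 0.0262% of it in EA on average and 0.614% in WT. Thus the isoform that fell was a trace component of subunit a in these heads in either group. The summed subunit a signal averaged 1887 ± 92.6 normalized counts per kb in EA, against 2098 ± 150 in WT (SD, n = 4). The libraries of the groups overlapped, and this difference was not tested. Vha100-3 and Vha100-5 had at most 4 reads in any library.

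**Figure D4:**
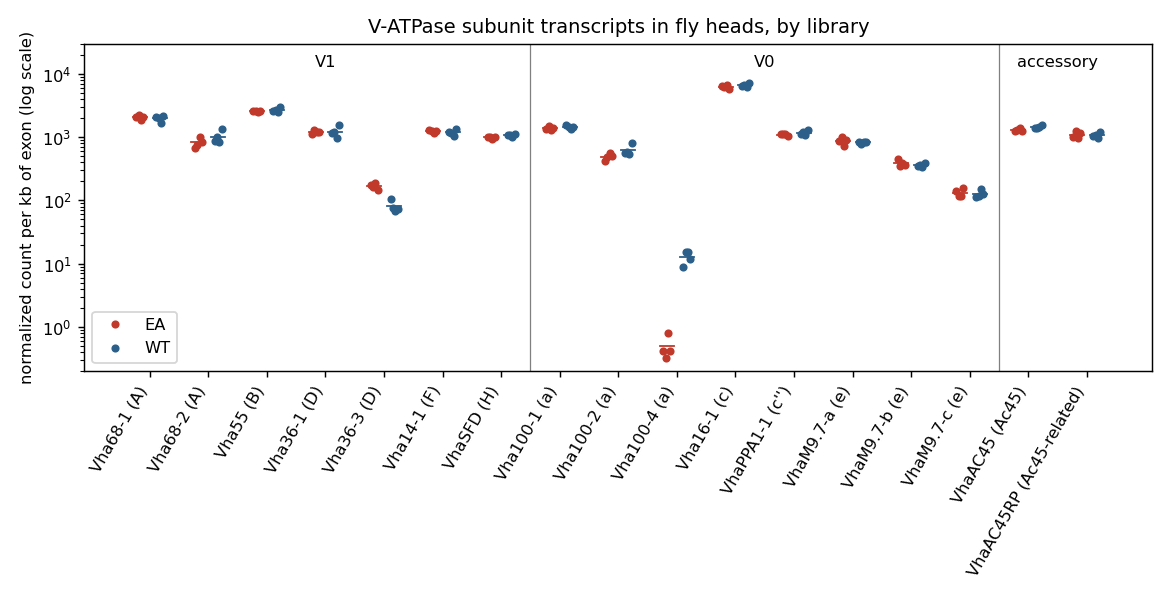
Normalized count per kb of exon (log scale) in each library for the 17 tested Vha genes, EA (red) left of WT (blue), with group means as lines. Vha16-1 is the highest gene in both groups, and Vha100-4 and Vha36-3 are the genes whose groups do not overlap.

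The catalytic subunits A and B bind and hydrolyse ATP. Vha55 (FBgn0005671, 3R, 12623762 to 12627829), the single gene for subunit B, had 7306, 7357, 6991 and 7139 normalized counts in EA, against 7303, 7631, 6941 and 8452 in WT. The groups overlapped, and the log2 fold change was -0.07 ± 0.08 (standard error; adjusted p of 0.805 by limma). Vha68-1 (FBgn0265262, 2L, 13000770 to 13004107), the more abundant gene for subunit A, had 5690, 6002, 4960 and 5667 in EA, against 5536, 5488, 4557 and 5724 in WT. Its fold change of 0.07 ± 0.10 (standard error; adjusted p of 0.852 by limma) was within the spread, with a negative sign without WT replicate 3.

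The second gene for subunit A, Vha68-2 (FBgn0263598, 2L, 12974322 to 12978607), varied more between libraries than Vha68-1. It had 1897, 2107, 2821 and 2329 normalized counts in EA, against 2407, 2765, 2335 and 3766 in WT. EA replicate 3 and WT replicate 4 were the highest of their groups, and the groups overlapped. The log2 fold change was -0.29 ± 0.17 (standard error; adjusted p of 0.543 by limma), with a 95% interval of -0.67 to 0.09, and was -0.14 without WT replicate 4. Vha68-2 carried 28.5% ± 5.03 of the subunit A signal per kb in EA and 33.7% ± 3.87 in WT (SD, n = 4), and Vha68-3 had at most 3 reads in any library.

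Vha68-2 and Vha100-2 ranked the libraries alike. In EA both were lowest in replicate 1 and highest in replicate 3, and in WT both were lowest in replicate 3 and highest in replicate 4. Summed neuron markers ran the opposite way, with 124465, 111122, 75786 and 102447 normalized counts in EA replicates 1 to 4, against 91106, 78049, 92335 and 72595 in WT replicates 1 to 4. Of the 17 tested Vha genes, these 2 alone ranked all 4 libraries in both groups exactly opposite to the neuron sum. Among all 10347 genes, 165 did (1.59%). Vha55, Vha36-1, Vha16-1, VhaPPA1-1, VhaM9.7-b and VhaAC45RP did so in WT but not in EA. In this respect the EA libraries alone set Vha68-2 and Vha100-2 apart from those genes. The orders were the same with Syt1, the largest neuron marker, left out of the sum. This pattern was noticed after the values were seen, and the part of neuronal RNA content in the levels of Vha68-2 and Vha100-2 was not tested.

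**Figure D5:**
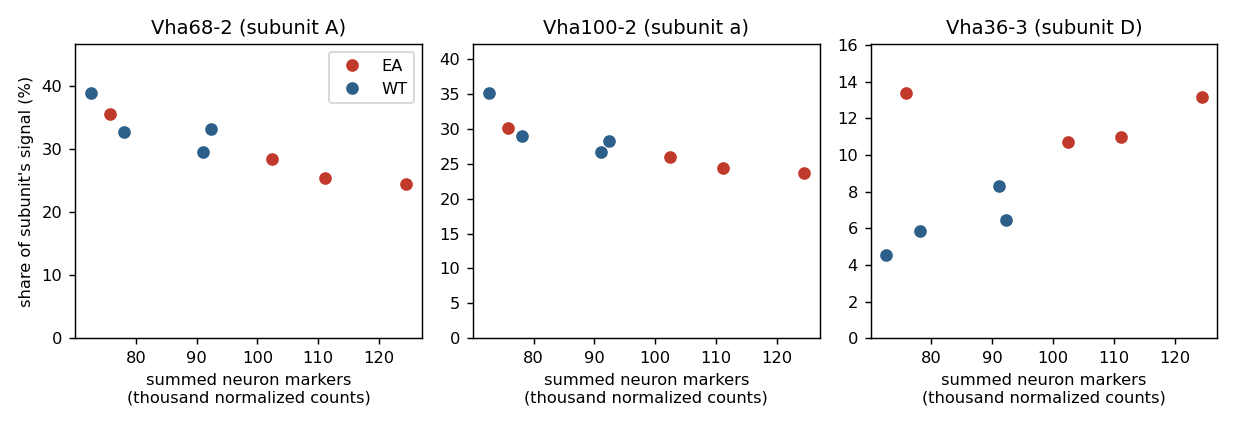
Share of a subunit's summed signal per kb (%) carried by Vha68-2, Vha100-2 and Vha36-3, against the summed normalized count of 6 neuron markers (in units of 1000 normalized counts), for EA (red) and WT (blue) libraries. The shares of Vha68-2 and Vha100-2 are lowest in EA replicate 1 (24.4% and 23.7%) and highest in WT replicate 4 (39.0% and 35.1%), whereas the share of Vha36-3 is higher in every EA library than in any WT library.

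The remaining V1 genes code for subunits F and H. Vha14-1 (FBgn0262512, 2R, 15679426 to 15680084), for the stalk subunit F, had 865, 831, 783 and 820 normalized counts in EA, against 810, 777, 696 and 890.0 in WT. Its log2 fold change was 0.06 ± 0.09 (standard error; adjusted p of 0.855 by limma). VhaSFD (FBgn0027779, 2L, 16722883 to 16727826) encodes subunit H, which bridges the sectors and silences free V1. It had 2818, 2886, 2702 and 2906 in EA, against 3088, 3052, 2852 and 3182 in WT, and only the lowest WT library fell within the EA range. The log2 fold change was -0.11 ± 0.07 (standard error; adjusted p of 0.592 by limma).

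In V0, subunit c forms the proton-carrying ring. Vha16-1 (FBgn0262736, 2R, 6625242 to 6633090), its main gene, had the highest level per kb of the 26 Vha genes matched, at 6279 ± 345 normalized counts per kb in EA and 6731 ± 433 in WT (SD, n = 4). As normalized counts it had 19737, 19246, 20402 and 17897 in EA, against 20032, 20716, 19525 and 22570 in WT. The groups overlapped, with a log2 fold change of -0.10 ± 0.09 (standard error; adjusted p of 0.723 by limma). The other c genes in the table, Vha16-2, Vha16-3 and Vha16-4, had at most 2 reads in any library. VhaPPA1-1 (FBgn0028662, 3R, 14902330 to 14904061), for the ring subunit c″, had 1502, 1505, 1501 and 1405 in EA, against 1539, 1620, 1463 and 1733 in WT (log2 fold change -0.10 ± 0.07, standard error; adjusted p of 0.652 by limma).

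The small membrane subunit e is encoded by 3 of the tested genes. VhaM9.7-a (FBgn0035521, 3L, 4262705 to 4263464) was the most abundant per kb, with 614, 724, 526 and 645 normalized counts in EA, against 607, 559, 598 and 601 in WT. Its log2 fold change was 0.08 ± 0.10 (standard error; adjusted p of 0.839 by limma), and the EA libraries enclosed all WT libraries. VhaM9.7-b and VhaM9.7-c had log2 fold changes of 0.10 ± 0.10 and 0.05 ± 0.14 (standard errors; adjusted p of 0.765 and 0.940 by limma). The VhaM9.7-c value was negative without EA replicate 4 or WT replicate 1. That gene lies wholly within introns of Teh2, on its strand, and of CG18675, and reads of unspliced RNA of those genes cannot be told apart from its own. The shares of the e genes differed by less than their spread, at 62.7% ± 4.32 in EA and 63.0% ± 1.37 in WT for VhaM9.7-a (SD, n = 4).

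For subunit d, VhaAC39-2 was the one gene matched, and it was too low to be tested. It had 3, 2, 1 and 3 reads in EA, against 6, 5, 5 and 3 in WT. As normalized counts the groups overlapped, with 3.44 in EA replicate 1 and 2.08 in WT replicate 4.

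The accessory proteins assist assembly of V0. VhaAC45 (FBgn0262515, 2R, 9207561 to 9209774) had 2571, 2592, 2836 and 2496 normalized counts in EA, against 2793, 2829, 2901 and 3119 in WT. EA replicate 3 alone overlapped the WT range, and the log2 fold change was -0.15 ± 0.07 (standard error; adjusted p of 0.442 by limma). Its relative VhaAC45RP (FBgn0051030, 3R, 30164692 to 30166419), described as a neuronal protein needed to acidify synaptic vesicles, had 1682, 2120, 1600.5 and 1945 in EA, against 1731, 1798, 1626 and 2042 in WT. The fold change was 0.03 ± 0.11 (standard error; adjusted p of 0.963 by limma), and was negative without EA replicate 2, EA replicate 4 or WT replicate 3.

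For the 15 genes that did not pass, the 95% intervals of the log2 fold change together spanned -0.67 to 0.36, and adjusted p-values ran from 0.336 to 0.979. The standard errors ran from 0.07 to 0.17. Changes beyond those bounds were therefore outside every interval, and within them the adjusted tests do not separate a small change from none. Among these genes the interval of Vha100-2 alone left out 0, at -0.65 to -0.03. WT replicate 4 was the highest of all 8 libraries for 9 of the 17 tested genes, against 14.7% of all tested genes. The median deviation of the 17 from their own means was 0.17 on the log2 scale in that library and between -0.07 and 0.01 in the other 7. Without it the median log2 fold change of the 17 was -0.02.

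Of the 26 genes in the table, 9 were below the minimum mean, and their highest normalized count was 7.94. They were Vha68-3, Vha36-2, Vha14-2, Vha100-3, Vha100-5, Vha16-2, Vha16-3, Vha16-4 and VhaAC39-2. In 6 of the 9 no library had more than 3 reads. For those 6, a level below 3 reads per library was not detectable at this depth. Testis markers were examined because several Vha copies are known from testis. Of 10 listed, 7 were found and 3 could be tested, and 0 were called by limma, edgeR or DESeq2 (0 at an unadjusted p under 0.05). The untested dj, Mst87F, can and Tpl94D had at most 7 reads in any library, whereas the tested bol averaged 5558 normalized counts. Whether the tested markers reflect testis RNA in these heads was not tested.

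Genes that work with the pump were taken from 4 lists covering its assembly and regulation, the Ragulator and Rag proteins that dock on it at the lysosome, vesicular transporters driven by its gradient, and lysosomal proteins. Of 36 listed genes 32 were in the table besides VhaAC45RP, 30 were tested and 0 passed with limma (4 at an unadjusted p under 0.05, against 12.7% of all tested genes), edgeR or DESeq2. Per list, 0 of 4 assembly genes, 0 of 7 Ragulator and Rag genes, 0 of 4 transporters and 0 of 15 lysosomal genes passed. The transporter genes VAChT and LOVIT and the lysosomal gene LManV were not matched, so they are not covered. The list medians were -0.04, 0.17, -0.09 and 0.14 on the log2 scale in that order.

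Among the assembly and regulation genes, Mitf, the transcription factor that activates Vha and lysosomal genes, had 815 ± 93.4 normalized counts in EA and 685 ± 57.3 in WT (SD, n = 4; log2 fold change 0.25 ± 0.10, standard error; adjusted p of 0.340 by limma). Rbcn-3B, a subunit of the rabconnectin complex that assembles the pump, had -0.04 ± 0.07 (standard error; adjusted p of 0.890 by limma). Lamtor3 had 180, 184, 222 and 209 normalized counts in EA, against 150, 134, 133 and 174 in WT. The EA libraries lay above the WT libraries, but the log2 fold change of 0.43 ± 0.12 (SE) did not pass over all genes (limma adjusted p = 0.154). The second smallest p in the Ragulator and Rag list was that of Lamtor2, with 0.21 ± 0.11 (standard error; adjusted p of 0.508 by limma). Of the transporters, prt, an orphan vesicular transporter of the mushroom body, had -0.36 ± 0.12 (standard error; adjusted p of 0.252 by limma) and Vmat, the monoamine transporter, -0.09 ± 0.12 (standard error; adjusted p of 0.8288 by limma). Of the lysosomal genes, Cln7 had -0.33 ± 0.14 (standard error; adjusted p of 0.349 by limma) and the hexosaminidase gene Hexo2 -0.54 ± 0.25 (standard error; adjusted p of 0.411 by limma). Both values were negative, whereas 10 of the 15 tested lysosomal genes had a log2 fold change above 0.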

How the data were processed

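Libraries were made from head RNA after removal of ribosomal RNA and read at 75 bp from both ends, although the molecule label reads polyA. The submitters' processing notes name TopHat, featureCounts, Subread and DESeq2 and the builds dm3 and BDGP5, without roles. The signal deposited by the authors was a read count divided by 1 size factor per library. Every value was a whole multiple of the smallest value in its library within 0.01 reads (100% of values), so whole reads were recovered. The deposited table also held the authors' mean, log2 fold change, its error, a test score and p-values, of which none was used. How reads shared by similar copies or overlapping genes were counted, and whether strand was used, is not given in the sources used here.

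Symbols, positions and exon lengths came from Ensembl BDGP6.54, by FlyBase identifier (14023 of 14622 matched, 95.9%), and were not used to recount. The test was limma 3.58.1 (R 4.3.3) with a variance trend. Values entered as log2 after adding a pseudocount of 1, and only genes averaging 10 or more over all 8 libraries were kept, with group as the only term. P-values were two-sided and Benjamini-Hochberg adjusted over 10347 genes, threshold 0.05. Fold changes on this scale understate those of low genes. The 95% intervals are those of limma and rest on the spread between libraries, whereas floors of 3 reads cover counting error only. The procedure was tested on simulated counts with 200 changed genes. Alternatives were edgeR 4.0.16 and DESeq2 1.42.0 on recovered reads, TMM scaling, other pseudocounts and minimum means, a block on replicate number and each library left out. The members and lists were chosen with earlier results of these data known. Named genes were all members, the nearest neighbours of members that passed, and the genes that passed or else the 2 smallest p of each related list. Tsp3A, Syt1 and single marker genes were picked after their values were seen.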

Additional observations from a re-analysis of the deposited data

Results flagged for a closer look

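In 34 groups of 4 libraries, formed from the 17 tested Vha genes in EA and in WT, 1 library lay farther from the others than Dixon's 95% critical value for 4 samples allows, and chance alone gives about 1 in 20 such groups. It was EA replicate 4 for VhaPPA1-1, the gene for subunit c″, at a normalized count of 1405, against 1502, 1505 and 1501 in the other EA libraries. The gap was 0.962 of the range of the group, which is itself narrow.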

How the results depend on the processing

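The count of 2 Vha genes called became 1 with a minimum mean of 50, which leaves Vha100-4 untested (0 lower), and 1 with the replicate block (0 higher), where Vha36-3 had an adjusted p of 0.0861. Leaving out 1 library gave 1 to 2 called, 0 to 1 higher and 1 lower, and the value of 1 was without WT replicate 2. The adjusted p of Vha36-3 was also 0.0488 without EA replicate 1 and 0.0456 without WT replicate 3. Same-numbered libraries correlated between -0.23 and 0.19 in their deviations from group means, and 1 EA and 1 WT library correlated best with its own number, so the numbers were not taken as pairs. Genes called among all genes were 532 with DESeq2, 79 at a minimum mean of 50, 26 with the replicate block and 38 to 186 with 1 library left out. With DESeq2 the log2 fold change of Vha36-1 was -0.000596. With 1 library left out it ran from -0.084 to 0.14, that of Vha68-1 from -0.00402 to 0.12, that of VhaM9.7-c from -0.031 to 0.13 and that of VhaAC45RP from -0.046 to 0.089. Without scaling by length, Vha36-3 carried 14.3% of the subunit D signal in EA, in place of 12.0%. The median of the tested members ran from -0.09 to -0.02 with 1 library left out. The other results on Vha genes kept direction and call, and the 4 related lists kept 0 called, under the alternatives run. Of the marker genes called, Arr2 and inaC had an adjusted p of 0.134 each with the replicate block and Alp4 one of 0.125. The causes of these shifts were not tested.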
